A study of Homo sapiens with 4 samples.

Results

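The transcripts described here are 10 output genes of the fibroblast growth factor receptor (FGFR) and MAP kinase pathway, measured by RNA sequencing in human multiple myeloma cells with a stable knockdown of PKCα or a luciferase control construct. They are the transcription factors ETV4 and ETV5, the phosphatases DUSP4 and DUSP6, the pathway inhibitors SPRY2, SPRY4, SPRED1 and SPRED2, and the immediate early factors EGR1 and JUNB. The genes were named by symbol for their role in the pathway, with earlier results of these data known, and all 10 were listed among the 22187 genes of the tables. The 4 libraries are the PKCα knockdown and the luciferase control of KMS18, and the PKCα knockdown and the luciferase control of KMS28BM. Both lines are labelled plasma cells of bone marrow origin and carry t(4;14), a translocation that drives FGFR3 and NSD2 from the immunoglobulin heavy chain locus. With 1 library per construct in a line, nothing measures the spread between cultures there. The means of knockdown is not stated in the labels, nor is whether each culture is 1 clone.

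An activated FGF receptor signals through adaptor proteins to RAS, RAF, MEK and ERK, and PKC can feed into the same cascade. ERK then raises a characteristic set of transcripts. ETV4 and ETV5 belong to the PEA3 group of ETS factors, DUSP6 and DUSP4 remove phosphate from ERK in the cytoplasm and nucleus, and Sprouty and Spred proteins restrain the cascade above ERK. EGR1 and JUNB are early response factors, of which JUNB is a subunit of AP-1. Several of these products feed back on the pathway, and their transcripts are widely read as a measure of its output.

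The libraries held 37940949 to 39507281 expected counts, and 11100 to 11591 genes reached 1 FPKM (fragments scaled to transcript length and library size). PRKCA, which encodes PKCα, was at 1.47 FPKM in the KMS18 knockdown and 7.46 FPKM in its control, and at 2.43 FPKM in the KMS28BM knockdown and 10.86 FPKM in its control. All 8 plasma cell markers were present in every library, with a summed level of 1224 FPKM in the KMS18 knockdown, 1989 FPKM in its control, 1173 FPKM in the KMS28BM knockdown and 1972 FPKM in its control. Of these 8 markers, 6 fell over both lines and 1, CD38, rose by the test used below. Their part in the differences described here was not tested. Of 14 markers of other cells, 3 were not listed, and the 11 listed summed to 26.5 FPKM in the KMS18 knockdown, 10.2 FPKM in its control, 5.47 FPKM in the KMS28BM knockdown and 2.88 FPKM in its control. CD3E, a T cell receptor component, made up most of the sum in KMS18, at 20.95 FPKM in the knockdown and 7.32 FPKM in the control.

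Promoter windows from RefSeq (GRCh38.p14), covering 250 bases before to 50 bases after a transcript start, were found for 7 of the 10 genes, in 10 windows. ETV4, ETV5 and DUSP4 had no entry. The EGR1 window held 2 serum response elements (CArG boxes), the motif through which ERK-activated ternary complex factors and SRF reach immediate early genes, and 1.29% of all 35116 windows held at least 1. They lay 105 to 96 and 83 to 74 bases before the start, on the plus strand of chromosome 5. The stretches shown, with the motif in capitals, span chr5:138465364-138465393 and chr5:138465386-138465415.
EGR1 distal: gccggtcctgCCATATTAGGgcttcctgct
EGR1 proximal: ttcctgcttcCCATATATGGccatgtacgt
The DUSP6 window held 2 copies of TCAATGGA on the opposite strand, 24 to 17 bases before the start and at bases 2 to 9 after it. The word is 1 of 4 forms of the octamer bound by CIC, a repressor that ERK inactivates, and was found in 0.51% of all windows on either strand. The stretches shown lie on the minus strand of chromosome 12 and span chr12:89352507-89352536 and chr12:89352482-89352511, and the capitals mark the octamer as read on the strand of the gene.
DUSP6 upstream: cggagaatgtaTCCATTGAgacgctcgctg
DUSP6 downstream: cgctgtttgtaTCCATTGAggagctgcctc
None of the 10 windows held TGAATGAA, TGAATGGA, TCAATGAA, the ETS word CCGGAAGT or the full cAMP response element TGACGTCA, which occurred in 1.65%, 1.03%, 0.718%, 4.14% and 1.85% of all windows. An AP-1 word (TGANTCA, 7.71% of windows) was found in SPRED2 alone, and the shorter element TGACGT (7.98% of windows) in EGR1 and SPRED2. All searches read both strands, and a match is a description of these letters only.

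The 10 genes spanned a wide range of levels, and their order differed between the lines. In KMS18, JUNB was the highest and EGR1 the lowest of the 10 in both libraries. In KMS28BM, SPRED2 ranked above JUNB in both libraries, and EGR1 and DUSP4 were at the low end. The genes with at least 1 FPKM in 1 library of a line numbered 8 in KMS18 and 7 in KMS28BM. SPRY4 and EGR1 stayed below that level in all 4 libraries, and DUSP4 did so in KMS28BM. Summed over the 10 genes, the level was 72.9 FPKM in the KMS18 knockdown and 118 FPKM in its control, against 79.8 FPKM in the KMS28BM knockdown and 81.9 FPKM in its control.

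**Figure D1:**
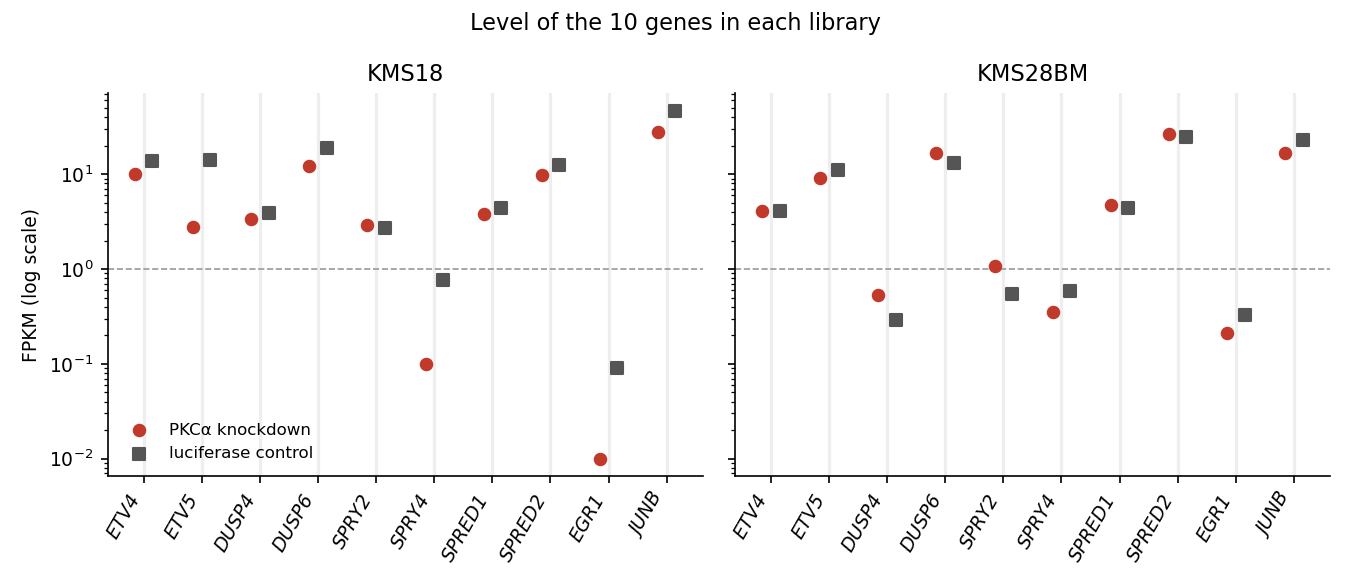
FPKM (log axis) of the 10 genes in each library, with the PKCα knockdown as circles and the luciferase control as squares, 1 library per point, and a dashed line at 1 FPKM. In KMS18 the knockdown lies below the control for 9 of 10 genes, and in KMS28BM for 5 of 10.

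In KMS18 the knockdown library was lower than the control for 9 of the 10 genes, and SPRY2 alone was slightly higher. The median difference of log2(FPKM + 1), knockdown minus control, was -0.37 over the 10 genes, against 0.04 over the 11742 genes that reached 1 FPKM in either library. Of the 8 members above that level 7 were negative, against 44.9% of all such genes. In KMS28BM the same median was 0.03 for the 10 genes and 0.05 over 11455 genes, with 5 members lower and 5 higher. Of the 7 members above 1 FPKM there, 3 were negative, against 42.9% of all such genes. The scale understates the change of low genes. The difference between the lines has no test, because each line holds 1 library per construct.

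Ratios of counts scaled with TMM (trimmed mean of M-values), with 95% exact intervals that cover counting error only, had a median on the log2 scale of -0.57 over the 10 genes in KMS18 and -0.08 in KMS28BM. In KMS18 the interval lay below 0 on the log2 scale for 9 of 10 genes, where 25.6% of all genes with counts in both libraries did so. In KMS28BM it lay below 0 for 2 of 10, JUNB and ETV5, against 26.4% of all genes. It lay above 0 for 3 of 10 in KMS28BM, DUSP4, DUSP6 and SPRY2, against 25.4% of all genes, and for none in KMS18, against 27.1% of all genes. In KMS28BM it spanned 0 for the other 5. These intervals say nothing of the spread between cultures, and the shares over all genes are not matched to the members for depth. Those shares include genes with few counts, whose intervals are wide.

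**Figure D2:**
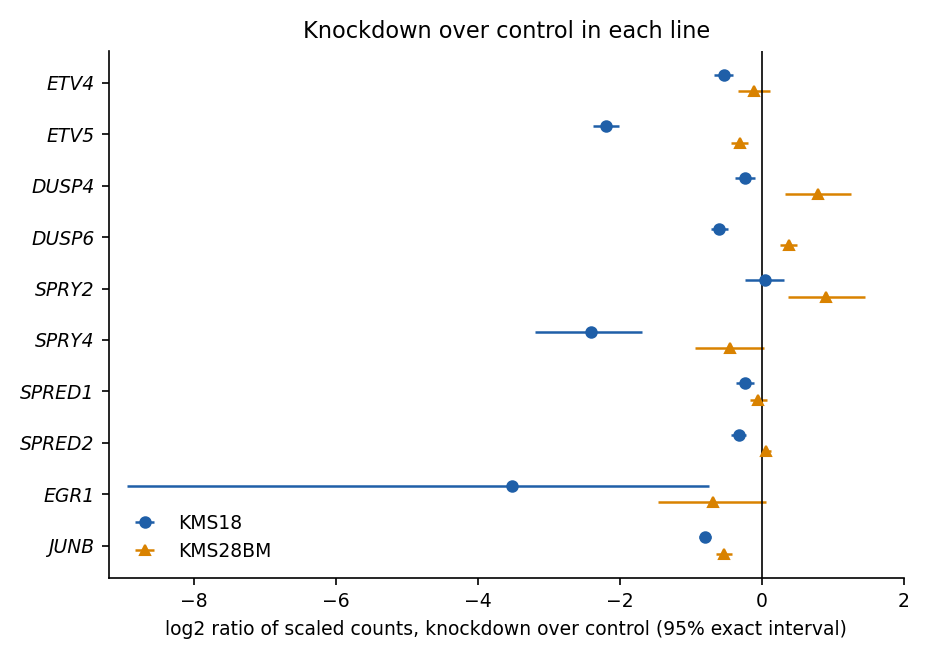
Log2 ratio of TMM-scaled counts, knockdown over control, for each gene in KMS18 (circles) and KMS28BM (triangles), with 95% exact intervals that cover counting error only. ETV5 and SPRY4 lie at -2.20 and -2.41 in KMS18 and at -0.31 and -0.45 in KMS28BM, and DUSP6 lies on opposite sides of 0.

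ETV5 (chromosome 3, 186046308 to 186110318, minus strand, GRCh38) showed the widest gap between the lines on log2(FPKM + 1). It was at 2.79 FPKM in the KMS18 knockdown and 14.1 FPKM in its control, on 315 and 1386 counts. In KMS28BM it was at 9.06 FPKM in the knockdown and 10.95 FPKM in the control. The KMS18 knockdown was thus far below the other 3 libraries, which lay within 9.06 to 14.1 FPKM. The scaled counts in the KMS18 knockdown were 21.8% of the control (log2 ratio -2.20, 95% interval -2.38 to -2.02), and those in the KMS28BM knockdown 80.7% (log2 ratio -0.31, 95% interval -0.43 to -0.19). ETV5 was the one member past the size rule, an absolute difference of log2(FPKM + 1) of at least 1 with at least 1 FPKM in 1 library. That rule took 1.46% of genes in KMS18 (0.647% lower) and 1.99% in KMS28BM (0.751% lower), where none of the 10 passed. In KMS18 ETV5 was among the 7 genes with the lowest difference of 11742. Over both lines its log2 difference was -1.21 (SE 0.39), which did not pass the edgeR test (adjusted p = 0.104, n = 2 lines).

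ETV4, the other PEA3 factor of the 10 (chromosome 17, 43527844 to 43579620, minus strand, GRCh38), was at 10.2 FPKM in the KMS18 knockdown and 13.9 FPKM in its control. In KMS28BM it was at 4.10 FPKM in the knockdown and 4.13 FPKM in the control. Its scaled counts were 68.9% of the control in KMS18 (95% interval of the log2 ratio -0.67 to -0.40) and 92.5% in KMS28BM, where the interval spanned 0. The levels of both KMS18 libraries were above those of both KMS28BM libraries. In the model of both lines ETV4 had a log2 difference of -0.34 (SE 0.15; adjusted p = 0.212 by edgeR).

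DUSP6, the ERK phosphatase of the cytoplasm (chromosome 12, 89347232 to 89353271, minus strand, GRCh38), moved in opposite directions. Its level was 12.1 FPKM in the KMS18 knockdown and 19.1 FPKM in its control, and at 16.7 FPKM in the KMS28BM knockdown and 13.2 FPKM in its control. The highest and the second lowest of the 4 libraries were the controls, so the constructs overlap. Scaled counts were 66.2% of the control in KMS18 (log2 ratio -0.60, 95% interval -0.72 to -0.47) and 130% in KMS28BM (0.38, 95% interval 0.25 to 0.50). With both lines in the model its log2 difference was -0.11 (SE 0.22; adjusted p = 0.803 by edgeR). The DUSP6 gene length listed by the authors was greater in both knockdown libraries, 1863 bases in the KMS18 knockdown against 1721 in its control, and 1852 bases in the KMS28BM knockdown against 1720 in its control. DUSP6 shares 1875 of its 4632 exonic bases with AC024909.2 on the other strand, which was not listed in any library. The library kit does not keep strand, so any reads from AC024909.2 there cannot be told from those of DUSP6.

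DUSP4, the nuclear phosphatase (chromosome 8), was at 3.40 FPKM in the KMS18 knockdown and 3.86 FPKM in its control. In KMS28BM it was at 0.53 FPKM in the knockdown and 0.29 FPKM in the control, on 112 and 62 counts. The gap between the lines was far wider than that between constructs, with no overlap between the lines. Its log2 count ratio was -0.24 in KMS18 (95% interval -0.38 to -0.09) and 0.79 in KMS28BM (0.33 to 1.26), and in the model of both lines 0.16 (SE 0.25; adjusted p = 0.746 by edgeR).

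Of the Sprouty genes, SPRY4 (chromosome 5, 142310427 to 142326455, minus strand, GRCh38) was low throughout and lower in the knockdown of both lines. It was at 0.10 FPKM in the KMS18 knockdown and 0.76 FPKM in its control, on 19 and 97 counts, and at 0.35 FPKM in the KMS28BM knockdown and 0.59 FPKM in its control, on 65 and 85 counts. Both knockdown libraries lay below both controls. Scaled counts were 18.8% of the control in KMS18 (log2 ratio -2.41, 95% interval -3.20 to -1.69) and 73.1% in KMS28BM (-0.45, -0.94 to 0.03). With both lines in the model its log2 difference was -1.35 (SE 0.52; adjusted p = 0.161 by edgeR). The listed SPRY4 length also differed, at 5009 bases in the KMS18 knockdown and 3391 in its control, and 4777 bases in the KMS28BM knockdown and 3679 in its control.

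SPRY2 (chromosome 13, 80335976 to 80340951, minus strand, GRCh38) did not share that pattern. It was at 2.91 FPKM in the KMS18 knockdown and 2.72 FPKM in its control, and at 1.08 FPKM in the KMS28BM knockdown and 0.55 FPKM in its control, on 88 and 45 counts. The KMS18 values lay close together, while in KMS28BM the knockdown was above its control. The log2 count ratio was 0.04 in KMS18 (95% interval -0.24 to 0.31) and 0.90 in KMS28BM (0.37 to 1.46), and 0.42 over both lines (SE 0.31, edgeR adjusted p = 0.442).

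The Spred genes, which encode membrane-bound inhibitors of RAS to RAF signalling, varied little with the construct. SPRED2 (chromosome 2, 65310851 to 65432637, minus strand, GRCh38) was at 9.79 FPKM in the KMS18 knockdown and 12.6 FPKM in its control, and at 26.3 FPKM in the KMS28BM knockdown and 24.5 FPKM in its control. SPRED1 (chromosome 15, 38252326 to 38357249, plus strand, GRCh38) was at 3.77 FPKM in the KMS18 knockdown and 4.45 FPKM in its control, and at 4.72 FPKM in the KMS28BM knockdown and 4.44 FPKM in its control. In KMS18 both were lower in the knockdown, with log2 count ratios of -0.32 for SPRED2 and -0.24 for SPRED1 and intervals below 0. In KMS28BM both intervals spanned 0, and the sign for SPRED1 turned with the scale, 0.07 on log2(FPKM + 1) and -0.05 on scaled counts. Over both lines the differences were -0.13 for SPRED2 and -0.14 for SPRED1, with SE of 0.12 each and edgeR adjusted p = 0.559 and 0.489.

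JUNB (ENSG00000171223, chromosome 19, 12791496 to 12793315, plus strand, GRCh38) was the one member that passed the test over both lines. It was at 27.8 FPKM in the KMS18 knockdown and 46.55 FPKM in its control, and at 16.7 FPKM in the KMS28BM knockdown and 22.9 FPKM in its control. Within each line the knockdown was the lower library, although the KMS18 knockdown was above the KMS28BM control. Scaled counts were 57.3% of the control in KMS18 (log2 ratio -0.80, 95% interval -0.89 to -0.72) and 69.4% in KMS28BM (-0.53, -0.64 to -0.42). With both lines in the model JUNB fell by 0.67 on log2 (SE 0.11; edgeR, quasi-likelihood F test, Benjamini-Hochberg adjusted p = 0.0183 over 14870 genes, n = 2 lines) and was lower in 2 of 2 lines. In that test 8.82% of all genes were called and 5.25% were called lower, so 1 of 10 is close to the background. The call was lost with no filter on low counts (adjusted p = 0.0625) and without the cell line block (adjusted p = 1), and adjusted p ranged from 0.00278 to 1 over 7 alternatives. Without that block 0 of all 14870 genes were called. JUNB shares 259 of its 1820 exonic bases with HOOK2 on the other strand, which was at 9.92 FPKM in the KMS18 knockdown and 8.74 FPKM in its control, and at 2.92 FPKM in the KMS28BM knockdown and 2.94 FPKM in its control. The library kit does not keep strand, so reads in the shared stretch cannot be assigned. Besides DUSP6, ETV4 and ETV5 also share exonic bases with another gene. ETV4 shares 68 of 3607 with DHX8 on the other strand, and ETV5 164 of 5802 with DGKG on the same strand.

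EGR1, whose 2 serum response elements are shown above (chromosome 5, 138465490 to 138469315, plus strand, GRCh38), was close to the detection limit. It was at 0.01 FPKM in the KMS18 knockdown and 0.09 FPKM in its control, on 1 and 11 counts. In KMS28BM it was at 0.21 FPKM in the knockdown and 0.33 FPKM in the control, on 26 and 40 counts. Both KMS28BM libraries were above both KMS18 libraries. The log2 count ratio had a 95% interval of -8.95 to -0.74 in KMS18 and -1.46 to 0.06 in KMS28BM, so its size is poorly fixed at this depth. In the model of both lines it was -1.31 (SE 0.67; adjusted p = 0.273 by edgeR).

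Taking both lines in 1 model, the median log2 difference of the 10 genes was -0.24, against 0.02 over all 14870 genes tested. All 10 passed the filter on low counts, and 8 of them had a negative difference. The share of all tested genes with a negative difference was not counted for this model. Apart from JUNB, ETV5 (edgeR unadjusted p = 0.0177) and SPRY4 (edgeR unadjusted p = 0.0377) were below 0.05 before adjustment. So were 3919 of all 14870 genes, so 3 of the 10 members is close to the background. The model has 1 residual degree of freedom and its error grows with the gap between the lines, with an SE of 0.39 for ETV5 and 0.11 for JUNB.

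**Figure D3:**
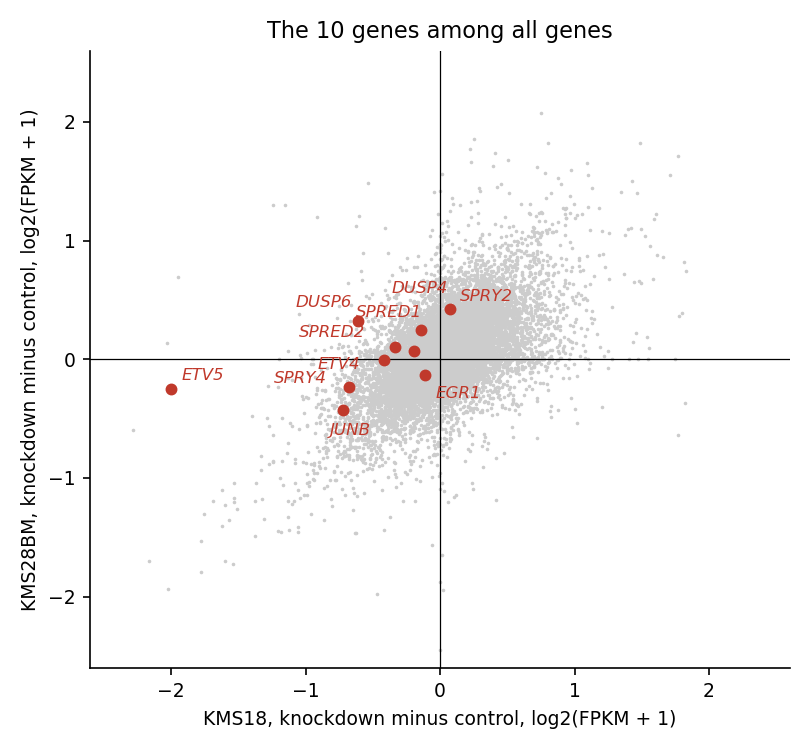
Difference of log2(FPKM + 1), knockdown minus control, in KMS18 (x axis) and KMS28BM (y axis) for the 10 genes (labelled) and for 12598 genes with at least 1 FPKM in a library (grey, 4 of them beyond the axes). JUNB, SPRY4, ETV5, ETV4 and EGR1 lie below 0 on both axes, and DUSP6, DUSP4, SPRED1 and SPRED2 lie below 0 in KMS18 and above 0 in KMS28BM.

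The lines themselves differed in 6 of the 10 genes by the cell line term of the same edgeR model, where 62.9% of all genes were called. This term treats the knockdown and the control of a line as its 2 libraries. Relative to KMS18, KMS28BM was lower in DUSP4 (log2 difference -3.26, SE 0.26, adjusted p = 6.14e-05), SPRY2 (-1.93, SE 0.31), ETV4 (-1.59, SE 0.15) and JUNB (-0.96, SE 0.11). It was higher in SPRED2 (1.03, SE 0.12) and EGR1 (2.49, SE 0.70, adjusted p = 0.0174). ETV5, DUSP6, SPRY4 and SPRED1 did not pass, with adjusted p from 0.187 to 0.634. The share of members called is near the share of all genes.

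Upstream of these genes, FGFR3, the receptor raised by t(4;14), was at 261 FPKM in the KMS18 knockdown and 437 FPKM in its control, and at 527 FPKM in the KMS28BM knockdown and 593 FPKM in its control. Its scaled counts were 58.6% of the control in KMS18 and 87.4% in KMS28BM. On scaled counts FGFR3 thus stood further below its control in KMS18, as did ETV5, ETV4, SPRY4, JUNB, SPRED1 and, on few counts, EGR1. DUSP6, DUSP4 and SPRED2 were below their control in KMS18 alone, and SPRY2 in neither line. The plasma cell markers were mixed in this order. IRF4 was at 48.9% of its control in KMS18 and 74.1% in KMS28BM, and PRDM1 at 63.2% and 90.7%. These markers outside the pathway thus shared the order, and XBP1 differed little, at 53.3% and 54.3%. SLAMF7 went the other way, at 61.5% in KMS18 and 43.6% in KMS28BM, as did MZB1, SDC1 and TNFRSF17 by less. CD38 was above its control in both lines. FGFR3 did not pass in the model of both lines (-0.48 on log2, SE 0.16; adjusted p = 0.105 by edgeR) and passed with DESeq2 (adjusted p = 0.0458), and whether its level bears on the members was not tested. NSD2, the other translocation gene, was at 184 FPKM in the KMS18 knockdown and 246 FPKM in its control, and at 112 FPKM in the KMS28BM knockdown and 172 FPKM in its control (-0.44 on log2, SE 0.11; adjusted p = 0.0579 by edgeR). It passed with DESeq2 (adjusted p = 0.00216) and with limma on log2(FPKM + 1) (adjusted p = 0.031).

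Of 22 listed FGF receptors, adaptors and ligands, 16 were tested, of which 1 rose and 3 fell, against 8.82% of all genes called in either direction and 5.25% lower, with a median log2 difference of -0.12. FRS2, the docking protein of FGF receptors, rose by 0.84 (SE 0.17, edgeR adjusted p = 0.0337), at 3.83 FPKM in the KMS18 knockdown and 2.31 FPKM in its control, and 2.54 FPKM in the KMS28BM knockdown and 1.06 FPKM in its control. GAB1, an adaptor that recruits the phosphatase SHP2, fell by 0.66 (SE 0.10, edgeR adjusted p = 0.0153). CBL, a ubiquitin ligase for activated receptors, fell by 0.56 (SE 0.10) and SOS1, the exchange factor that loads RAS, fell by 0.49 (SE 0.11), with edgeR adjusted p = 0.0201 and 0.0377. These 4 moved the same way in both lines. The FRS2 call was lost with DESeq2 (adjusted p = 0.0533) and the CBL call with limma on log2(FPKM + 1) (adjusted p = 0.052). With no filter on low counts, NRAS, RASGRP3 and BCL2L11 were the calls left over the 5 lists.

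Of 20 genes of the RAS to ERK cascade, all tested, 1 rose and 3 fell, against the same 8.82% of all genes called, with a median of -0.16. NRAS was at 17.9 FPKM in the KMS18 knockdown and 47.8 FPKM in its control, and at 13.2 FPKM in the KMS28BM knockdown and 28.2 FPKM in its control (-1.33 on log2, SE 0.11; adjusted p = 0.00345 by edgeR). It alone of the 20 passed the size rule in either line. The kinase BRAF fell by 0.51 (SE 0.10) and RASGRP3, a RAS and RAP exchange factor that binds diacylglycerol, fell by 0.69 (SE 0.09). MAPK3, which encodes ERK1, and the MEK genes MAP2K1 and MAP2K2, named for their role after their values were seen, had edgeR adjusted p from 0.273 to 0.382.

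A list of 20 regulators, all tested, held transcription factors and also kinases such as RPS6KA3. Of the 20, 2 rose and 4 fell, against 8.82% of all genes called, with a median of 0.00. CIC, the repressor whose octamer stands in the DUSP6 window above, rose by 0.57 (SE 0.11, edgeR adjusted p = 0.0299). It was at 18.3 FPKM in the KMS18 knockdown and 15.2 FPKM in its control, and at 35.5 FPKM in the KMS28BM knockdown and 18.6 FPKM in its control. Whether CIC bears on DUSP6 was not tested. ELK4 and ELK3, ternary complex factors that act with SRF at serum response elements, fell by 0.66 and 0.64 (SE 0.10 each, edgeR adjusted p = 0.0138 and 0.0156). RPS6KA3, which encodes the ERK-activated kinase RSK2, fell by 0.45 (SE 0.09). With limma on log2(FPKM + 1) the calls of CIC and RPS6KA3 were lost (adjusted p = 0.0733 and 0.15).

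**Figure D4:**
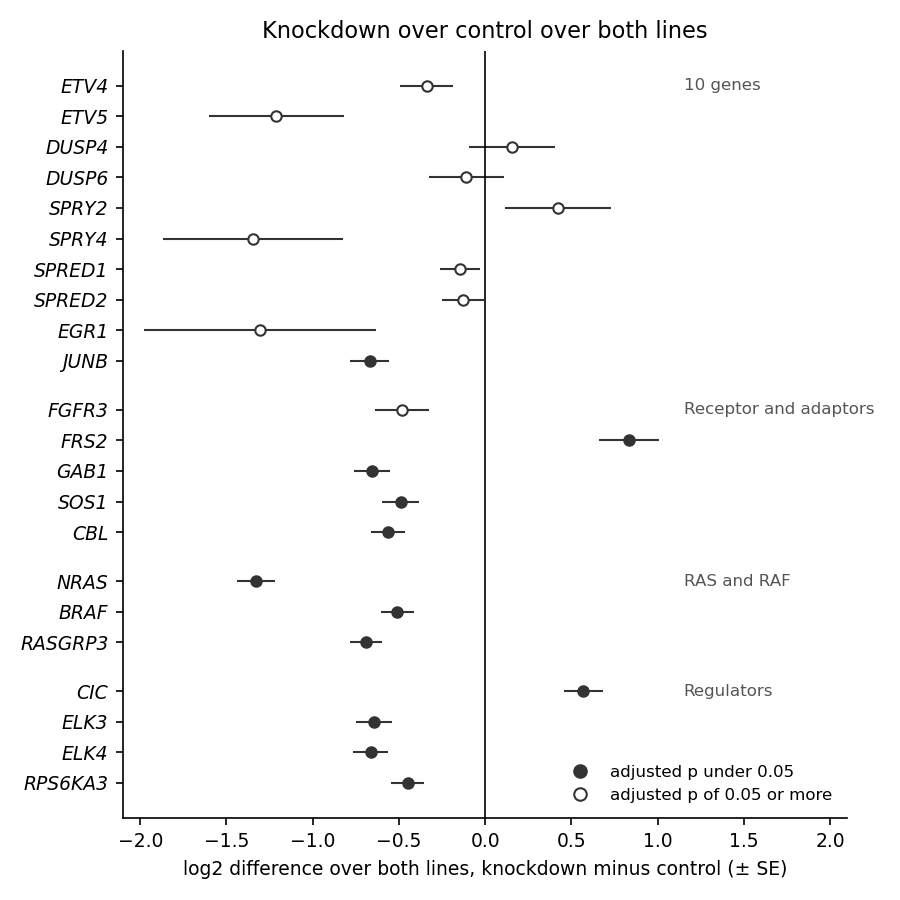
Log2 difference over both lines, knockdown minus control, with SE, from edgeR for the 10 genes, FGFR3 and genes named from the receptor, RAS to ERK and regulator lists. Filled points have an adjusted p under 0.05. JUNB is the one filled point among the 10, while FRS2 and CIC are filled to the right of 0 and NRAS lies furthest left of the filled points, at -1.33.

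Among 21 other ERK output and feedback genes, 16 were tested, of which 2 rose and 0 fell, against 8.82% of all genes called, with a median of 0.08. BCL2L11, which encodes the pro-apoptotic protein BIM and is restrained by ERK, rose by 0.71 (SE 0.10, edgeR adjusted p = 0.0125), at 26.8 FPKM in the KMS18 knockdown and 18.4 FPKM in its control, and 28.2 FPKM in the KMS28BM knockdown and 15.2 FPKM in its control. RASA4, a RAS GTPase activating protein with near-identical gene copies among which reads could be split, rose by 0.70 (SE 0.16, edgeR adjusted p = 0.0445). Its FPKM differed little in KMS18, at 14.9 in the knockdown and 14.8 in the control, and in KMS28BM it was at 31.9 FPKM in the knockdown and 15.9 FPKM in the control. The RASA4 call was lost with limma on log2(FPKM + 1) (adjusted p = 0.195) and with no filter (adjusted p = 0.124). In the same list CCND1, EPHA2, FOSL1, DUSP9 and SPSB1 did not pass the filter on low counts. Of 25 other immediate early genes 23 were tested, 0 rose and 1 fell, below the 8.82% of all genes called, with a median of -0.04. That gene was MCL1, an anti-apoptotic factor (-0.55, SE 0.10, edgeR adjusted p = 0.0205). In KMS18, 17 of these genes reached 1 FPKM, with a median difference of log2(FPKM + 1) of -0.20 and 12 negative, where 44.9% of all genes were negative. In KMS28BM, 17 genes, not all of them the same, reached 1 FPKM, with a median of 0.24 and 5 negative, where 42.9% of all genes were negative.

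The word AGTCTA, taken from an earlier search of these data that was made once calls were known, occurred in transcripts of 6 of the 10 genes (ETV4, ETV5, DUSP4, SPRY4, SPRED1 and EGR1), against 46.6% of 13422 tested genes with a GENCODE 29 transcript. JUNB, the one member called, does not hold it. The longer CAGTCTA occurred in SPRED1 alone (18.9% of genes) and AGTCTAA in none of the 10 (17.2% of genes). These shares of all genes are not matched to the members for transcript length. The sites of ETV5, the member with the largest difference of log2(FPKM + 1) in KMS18, and the longer site of SPRED1, which differed little, are shown with AGTCTA in capitals. All 3 lie after the coding sequence, at bases 3627 and 3967 of a 4111-base ETV5 transcript and base 4637 of a 7780-base SPRED1 transcript.
ETV5 site a: aacctacacatAGTCTAtacatagatgc
ETV5 site b: agagtgtggaaAGTCTAcagtgcagaaa
SPRED1 site: gtttcttaatcAGTCTAcaagactaact
The part of these words in the differences was not tested.

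The genes nearest to each member over the 4 libraries were taken by Euclidean distance of log2(FPKM + 1), centred within gene, for the 5 members that reached 5 FPKM. This describes 4 points per gene and no shared control. Nearest to ETV5 were AC126755.2 (distance 0.28), CCNE2, a cyclin of the G1 to S transition (0.602), and PBK, a mitotic kinase (0.657), so the nearest gene lay further off than for the other 4. CCNE2 was at 8.27 FPKM in the KMS18 knockdown and 21.6 FPKM in its control, and at 13.5 FPKM in the KMS28BM knockdown and 19.5 FPKM in its control. Nearest to JUNB were TMEM164 (0.118), AGO2 (0.126) and IL1RAP (0.13), and nearest to DUSP6 were WDR90 (0.096), CHTF18 (0.148) and TCF19 (0.165). ETV4 was nearest to FAS (0.098), RAB3IP (0.103) and FAM102A (0.121), and SPRED2 to TNFRSF18 (0.027), ACTN4 (0.062) and KIF5B (0.079).

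The listed gene length is given per library in the authors' tables and moves with the mix of transcripts. It was longer by more than 0.1 on log2 in the knockdown of both lines for DUSP6 and SPRY4. The log2 ratio of lengths was 0.12 in KMS18 and 0.11 in KMS28BM for DUSP6, and 0.56 and 0.38 for SPRY4. Among 9695 genes with several transcripts and at least 50 counts in every library, 3.70% were longer by at least 0.1 in both lines. By any amount, 32.6% were longer in both. SPRY4, with 19 counts in the KMS18 knockdown, is not among those genes. ETV5 was longer by 0.20 in KMS18 and 0.04 in KMS28BM, and SPRED2 by 0.10 and 0.03. JUNB and EGR1 have 1 listed transcript and a fixed length.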

How the data were processed

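Column-purified total RNA was made into TruSeq RNA libraries, per the labels' protocols. The authors deposited 1 table per library with an expected count, an FPKM value and a gene length, per the file headers. The expected counts deposited by the authors need not be whole, and 52.2% to 54.0% were whole within 0.005. The deposited FPKM values are scaled to length and library size. The length is a value of another kind, in bases, as deposited. HISAT, STAR and Bowtie2 appear as tools, and hg19 and GRCh37 as builds, per the submitters' processing notes. What made the counts is not stated there. Coordinates come from GENCODE 29 on GRCh38, by gene identifier, with nothing converted.

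Counts and FPKM were summed over identifiers sharing a symbol, and a gene absent from a table was set to 0. Counts were rounded to whole numbers and tested with edgeR 4.0.16 (R 4.3.3; TMM, default filter with a minimum count of 10, quasi-likelihood test, Benjamini-Hochberg at 0.05), with cell line as a block and construct as the tested term, because the labels give each line 1 library of each construct. Alternatives used DESeq2 1.42.0 and limma 3.58.1. Within a line, values are differences of log2(FPKM + 1) or TMM count ratios with 95% exact (conditional binomial) intervals, with no p-value. The 10 genes and all lists were chosen with earlier results of these data known. Besides the 10 genes, PRKCA and FGFR3, the text names at most 4 called genes per list, by adjusted p, those past the size rule, and the 3 nearest genes of each member. Some genes that the rule or the lists would name are not reported here, and the counts over lists include them.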

Additional observations from a re-analysis of the deposited data

Results flagged for a closer look

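For 4 genes the knockdown lay on opposite sides of its control in the 2 lines on log2(FPKM + 1), and the difference between the lines was not tested. DUSP6 was at 0.32 in KMS28BM and -0.61 in KMS18, a gap of 0.93 between lines. SPRED2 was at 0.10 in KMS28BM and -0.33 in KMS18, a gap of 0.43. DUSP4 was at 0.25 in KMS28BM and -0.14 in KMS18, a gap of 0.39. SPRED1 was at 0.07 in KMS28BM and -0.19 in KMS18, a gap of 0.26. For DUSP6 and DUSP4 the counting intervals lay on opposite sides of 0, and for SPRED1 the sign in KMS28BM turned on scaled counts. The share of all genes with such opposite intervals was not counted either.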

How the results depend on the processing

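Of the 10 genes 1, JUNB, was called over both lines, and the count was 1 with median of ratios scaling, DESeq2, 5 CPM in at least 2 libraries, and limma on log2(FPKM + 1) or log2(FPKM + 0.1). It was 0 with no filter on low counts and 0 with no replicate block, where 2 and 0 of the 10 had an unadjusted p under 0.05. Over all genes, 3824 of 22108 with no filter and 215 of 14870 with no replicate block were under that value. The main test called 531 of 14870 genes higher and 781 lower. With no filter 124 of 22108 genes were called higher and 243 lower, and with no replicate block 0 of 14870 genes were called. The cell line pairs the libraries. Over the 5 pathway lists 17 genes were called, against 16 with median of ratios scaling, 18 with DESeq2, 17 at 5 CPM, 12 with limma on either FPKM scale, 3 with no filter and 0 with no replicate block. Calls over all genes also fell with no filter and with no replicate block. Those higher and lower were 527 and 697 of 14870 with median of ratios scaling, and 517 and 857 with DESeq2. At 5 CPM they were 623 and 719 of 10897. With limma they were 542 and 487 of 12598 on log2(FPKM + 1), and 618 and 532 on log2(FPKM + 0.1). DUSP4, not called, turned to -0.14 with no replicate block, and the other 9 genes kept their sign in every alternative test that included them. With 1 line left out, the log2 difference ran from -2.20 to -0.31 for ETV5, from -2.41 to -0.45 for SPRY4, from -3.52 to -0.69 for EGR1, from -0.60 to 0.38 for DUSP6, from -0.24 to 0.79 for DUSP4 and from -0.80 to -0.53 for JUNB, as values with no test. The number past the size rule stayed at 1 in KMS18 and 0 in KMS28BM with each alternative. SPRY4 and EGR1 rest on few counts.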

Other observations

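Another 2 genes of the ERK output list were picked after their values were seen. ETV1, the PEA3 factor outside the 10 genes, was at 1.23 FPKM in the KMS18 knockdown and 3.25 FPKM in its control, and at 39.7 FPKM in the KMS28BM knockdown and 44.1 FPKM in its control (log2 difference over both lines -0.55, SE 0.21, edgeR adjusted p = 0.162). DUSP5, a nuclear ERK phosphatase, was at 6.05 FPKM in the KMS18 knockdown and 5.10 FPKM in its control, and at 22.9 FPKM in the KMS28BM knockdown and 11.7 FPKM in its control (0.58, SE 0.17, edgeR adjusted p = 0.0829).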
